A study of Mus musculus with 8 samples.

Results

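The serotonin receptor genes of the adult mouse brain were examined in bulk RNA-seq of the whole brain. The members were the 10 genes whose symbol in the deposited table was Htr1a, Htr1b, Htr1d, Htr2a, Htr2c, Htr3a, Htr4, Htr5a, Htr6 or Htr7, of 24343 genes in the table. All animals were C57BL/6NCrl mice, an inbred wild-type strain, 56 to 62 days old, of a single condition with no treatment or genetic change named. Mouse 1 gave 3 libraries, mouse 2 gave 3 and mouse 3 gave 2, and the labels do not say what the library numbers stand for or the sex of each mouse. The libraries of a mouse are not independent animals, so each SD below is between mice (n = 3), and p-values from tests on the 8 libraries describe these 3 mice only. Levels are FPKM (fragments scaled to transcript length and to library size). Transcripts of a gene were summed, each mouse was represented by the mean of its libraries, and the 3 mouse means were averaged. FPKM divides by transcript length, so levels of different genes can be set side by side, within the limits of the transcript models described below.

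Serotonin is made by neurons of the raphe nuclei in the brainstem, whose axons reach nearly all of the brain, and its effect on a target cell depends on which receptors that cell carries. The receptors are grouped by how they signal. Receptors of the 1 and 5 classes couple mainly to Gi/o proteins and lower cyclic AMP, those of the 2 class couple to Gq and raise intracellular calcium, those of the 4, 6 and 7 classes couple to Gs and raise cyclic AMP, and the type 3 receptor is a cation channel opened by serotonin. Some Gi/o-coupled receptors also sit on serotonergic neurons themselves, where they restrain firing or release.

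Between 1.31 and 2.02 gigabases were read on annotated transcripts per library, and the 3 mouse means of a gene had a median coefficient of variation of 12.3% among 13001 genes averaging 1 FPKM or more. Defining markers of neurons, astrocytes, oligodendrocytes, microglia and cerebellum were present in every library, whereas of 2 markers of tissue outside the brain, Alb (liver) was listed at 0 throughout and Acta1 (skeletal muscle) was at 1.66 to 12.6 FPKM, highest in library 1 of mouse 2. Both libraries of mouse 3 stood apart from the other 6. Mbp, a myelin gene that marks oligodendrocytes, was at 1253 to 1365 FPKM in mice 1 and 2, and at 2836 and 3495 FPKM in mouse 3.

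All 10 receptor genes were detected in all 8 libraries, over a 25.9-fold range of mean levels. Htr2c was highest at 14.7 ± 1.33 FPKM, which lay above 82.0% of all genes, and Htr4 was lowest at 0.569 ± 0.0379 FPKM, above 42.6% of all genes. Htr2a, Htr7, Htr1a, Htr5a, Htr1b and Htr3a fell between these ends in that order, followed by Htr1d and Htr6 near 1 FPKM. Another 4 receptor genes are in the table. Of these, Htr1f (Gi/o) reached 0.997 ± 0.101 FPKM and Htr5b, a relative of Htr5a, 0.587 ± 0.103 FPKM, so both lay among the lowest members. Htr2b averaged 0.0269 FPKM and was listed at 0 in 4 libraries, and Htr3b, the partner subunit of Htr3a, was listed above 0 in 1 library, at 0.0402 FPKM.

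**Figure D1:**
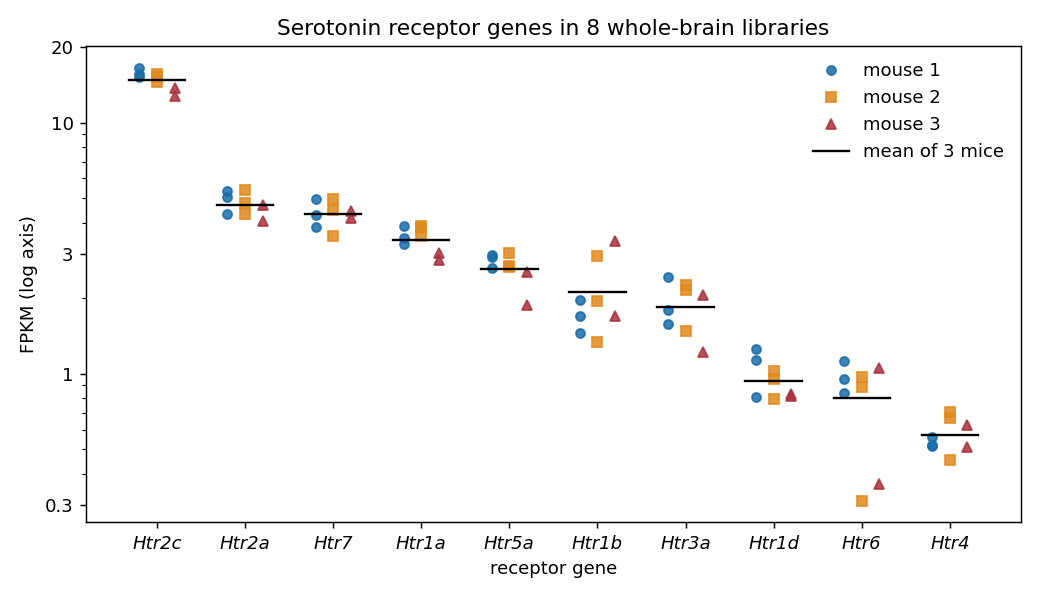
Level of each of the 10 serotonin receptor genes (FPKM, log axis) in 8 whole-brain libraries, coloured by mouse, with bars at the mean of the mouse means. Htr2c, with libraries between 12.7 and 16.6 FPKM, lies above every library of every other receptor gene, and Htr4 and Htr6 are the lowest.

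Of the Gq-coupled receptors, Htr2c encodes a receptor found widely in neurons and at a very high level in the choroid plexus, and its transcript is edited by RNA deaminases. Htr2c was at 15.2, 16.6 and 15.7 FPKM in the libraries of mouse 1, 15.3, 14.6 and 15.7 FPKM in those of mouse 2, and 13.8 and 12.7 FPKM in those of mouse 3. Both libraries of mouse 3 were below all 6 others, and the libraries of mice 1 and 2 overlapped. Htr2c alone held 40.8 ± 1.12% of the summed level of the 10 genes, between 39.7 and 41.9% in the 3 mice. The summed level of 5 choroid plexus markers ranged from 322 FPKM in library 1 of mouse 2, where Htr2c was 15.3 FPKM, to 566 FPKM in library 2 of mouse 3, where Htr2c was lowest at 12.7 FPKM. Most of this sum was Ttr. The markers Kl (2.73 FPKM) and Clic6 (2.61 FPKM) were at their lowest in library 2 of mouse 3, as Htr2c was. Ttr (551 FPKM), Folr1 (4.61 FPKM) and Kcne2 (4.61 FPKM) were instead at their highest in that library. The part of choroid plexus in the level of Htr2c was not tested. Htr2a encodes the receptor through which classical hallucinogens act, and is prominent in cortical pyramidal neurons. It was at 4.33, 5.34 and 5.06 FPKM in mouse 1, 4.31, 5.42 and 4.81 FPKM in mouse 2, and 4.71 and 4.05 FPKM in mouse 3, and all 3 mice overlapped. Its mean was 4.71 ± 0.289 FPKM, and Htr2c exceeded it 3.13 ± 0.0977-fold.

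Among the Gi/o-coupled receptors, Htr1a encodes both the autoreceptor on the cell bodies of serotonergic neurons and a receptor on many cortical and hippocampal neurons. Htr1a was at 3.46, 3.30 and 3.88 FPKM in mouse 1, 3.80, 3.54 and 3.88 FPKM in mouse 2, and 3.02 and 2.85 FPKM in mouse 3, with a mean of 3.41 ± 0.420 FPKM. As for Htr2c, both libraries of mouse 3 lay below the other 6. Htr5a, a receptor found largely in the nervous system, was at 2.64, 2.98 and 2.91 FPKM in mouse 1, 2.68, 2.67 and 3.03 FPKM in mouse 2, and 2.55 and 1.89 FPKM in mouse 3, with a mean of 2.62 ± 0.348 FPKM. Mouse 3 was again lowest in both of its libraries, which differed from each other more than the 6 libraries of mice 1 and 2 did.

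Htr1b and Htr1d encode closely related receptors that act, among other places, on axon terminals. Htr1b was at 1.70, 1.45 and 1.97 FPKM in mouse 1, 2.96, 1.34 and 1.94 FPKM in mouse 2, and 3.39 and 1.70 FPKM in mouse 3, with a mean of 2.11 ± 0.419 FPKM. The first library of mice 2 and 3 was far above the others, so that libraries of the same mouse differed more than the mice did. Htr1d was at 1.13, 1.26 and 0.809 FPKM in mouse 1, 1.03, 0.796 and 0.958 FPKM in mouse 2, and 0.818 and 0.833 FPKM in mouse 3, with a mean of 0.940 ± 0.121 FPKM and overlap between all mice.

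Of the Gs-coupled receptors, Htr7, expressed in thalamus and hypothalamus among other regions, was at 3.84, 4.99 and 4.30 FPKM in mouse 1, 3.53, 4.98 and 4.51 FPKM in mouse 2, and 4.16 and 4.47 FPKM in mouse 3. Its mouse means were the closest of the 10 genes, 4.34 ± 0.0317 FPKM, although its libraries spanned 3.53 to 4.99 FPKM. Htr6, which is concentrated in the striatum, was at 1.13, 0.955 and 0.837 FPKM in mouse 1, 0.313, 0.971 and 0.888 FPKM in mouse 2, and 1.06 and 0.364 FPKM in mouse 3. A library each of mice 2 and 3 was thus less than 0.4 FPKM while the rest lay above 0.8 FPKM. The 5 striatal markers summed to 139 and 126 FPKM in these libraries, but also to only 139.7 FPKM in library 1 of mouse 3, where Htr6 was 1.06 FPKM, and to 155 to 169 FPKM in the other 5. Their part in the level of Htr6 was not tested. Htr4 was at 0.521, 0.515 and 0.562 FPKM in mouse 1, 0.454, 0.706 and 0.665 FPKM in mouse 2, and 0.511 and 0.624 FPKM in mouse 3, and the mice overlapped.

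The ion channel subunit Htr3a is expressed in a class of cortical interneurons. It was at 1.79, 1.58 and 2.42 FPKM in mouse 1, 1.48, 2.27 and 2.15 FPKM in mouse 2, and 1.23 and 2.06 FPKM in mouse 3, with a mean of 1.85 ± 0.177 FPKM. Every mouse overlapped the others. The 5 genes listed as markers of interneurons that carry Htr3a summed to 168 to 278 FPKM in mice 1 and 2. They summed to 278 and 317 FPKM in mouse 3. Most of this sum was Cck (215 and 247 FPKM in mouse 3). In library 2 of mouse 3, Cck and Vip (16.9 FPKM) were at their highest, but Reln (4.84 FPKM) and Ndnf (2.51 FPKM) at their lowest. Lamp5 overlapped, at 36.3 to 50.9 FPKM in mice 1 and 2 and 38.3 and 45.4 FPKM in mouse 3. Htr3a was 1.48 FPKM in the library with the lowest sum, library 1 of mouse 2. It was lowest (1.23 FPKM) in library 1 of mouse 3, with a sum of 278 FPKM. The part of these interneurons in the sum was not tested.

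Summed by coupling, the 2 Gq-coupled genes held 53.9 ± 1.07% of the summed level of the 10 genes, the 4 Gi/o-coupled genes 25.2 ± 0.730%, the 3 Gs-coupled genes 15.9 ± 0.780% and the ion channel gene 5.11 ± 0.183%. The order was the same in each mouse, and the summed level of the 10 genes was 37.7, 37.2 and 33.4 FPKM in mice 1, 2 and 3. The shares leave out the other 4 receptor genes, of which Htr1f and Htr5b were at 0.997 and 0.587 FPKM. They describe RNA of the whole brain and not receptor protein or single cells.

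**Figure D2:**
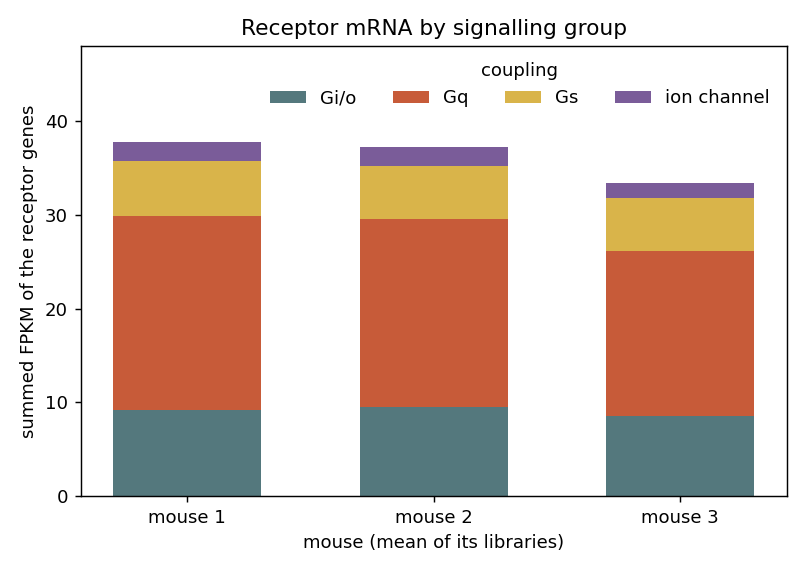
Summed FPKM of the 10 serotonin receptor genes in each mouse (mean of its libraries, n = 3), as bars stacked by coupling group. The Gq-coupled pair holds 52.8 to 55.0% of the sum in the 3 mice, above the 24.3 to 25.6% of the Gi/o-coupled genes.

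Neighbours in the order of levels were compared by their log2 difference in each mouse with an exact two-sided sign-flip permutation test over the 3 mice, which cannot give a p below 0.25. Htr2c exceeded Htr2a by 1.64 ± 0.045 on the log2 scale and in 8 of 8 libraries, the widest step of the order. Htr3a exceeded Htr1d by 0.98 ± 0.12, and Htr1a exceeded Htr5a by 0.38 ± 0.056, both also in 8 of 8 libraries. Htr2a and Htr7 were separated by 0.12 ± 0.081, with Htr2a higher in 7 of 8 libraries, and Htr7 exceeded Htr1a by 0.36 ± 0.18, also in 7 of 8. The positions of Htr5a, Htr1b and Htr3a were not settled by these mice. Htr5a exceeded Htr1b by 0.32 ± 0.48 in 2 of 3 mice (exact p = 0.5), and Htr1b exceeded Htr3a by 0.18 ± 0.41 in 2 of 3 mice but in only 2 of 8 libraries (exact p = 0.75). The steps from Htr1d to Htr6 (0.24 ± 0.11, 5 of 8 libraries) and from Htr6 to Htr4 (0.48 ± 0.34, 6 of 8 libraries) had the same sign in all 3 mice but overlapping library values.

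The receptor genes differ in how much transcript stood behind these levels. They lie on 8 chromosomes, and Htr1a, Htr1b and Htr1d carry their whole coding sequence in 1 exon. On mm10 (GRCm38), the plus-strand genes are Htr2c at chrX:146962513-147197277, Htr2a at chr14:74640840-74706859, Htr1a at chr13:105443693-105448133, Htr5a at chr5:27841947-27855086 and Htr1d at chr4:136423524-136444401, with Htr4 on chromosome 18. The minus-strand genes are Htr7 at chr19:35958729-36057360, Htr1b at chr9:81631392-81632552, Htr3a at chr9:48899213-48911099 and Htr6 at chr4:139061409-139074789. Htr3a and Htr3b are neighbours, 23.9 kilobases apart. The deposited models of most members matched the longest GENCODE coding transcript in length, at 97.3 to 106% of it. The exceptions were Htr1b with 1161 of 4724 bases (24.6%), Htr2a with 2971 of 5606 bases (53.0%) and Htr6 with 1362 of 2341 bases (58.2%), so that untranslated sequence of these genes was left out of their FPKM. The effect of these short models on the order of levels was not tested. For Htr1b the model was exactly the coding sequence with its stop codon. On the opposite strand, exons of the noncoding gene D430036J16Rik cover 852 of these 1161 bases. That gene was itself listed at 1.46 to 2.86 FPKM, and since the strand setting was not given, its reads and those of Htr1b cannot be told apart there.

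**Figure D3:**
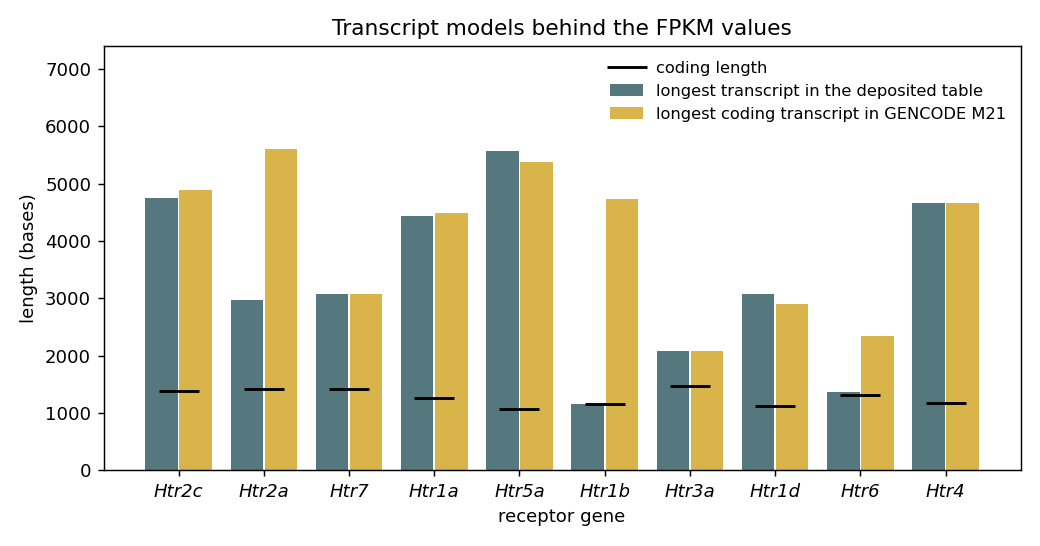
Length of the deposited transcript model and of the longest GENCODE coding transcript (bases) for each of the 10 receptor genes. The model of Htr1b, 1161 of 4724 bases, falls furthest short, followed by those of Htr2a and Htr6.

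The bases read on the model of a gene set the precision of its level. Between 118 and 178 kilobases were read on Htr2c per library, against 3.11 to 8.24 kilobases on Htr1b and 0.745 to 3.00 kilobases on Htr6. The confidence bounds deposited with each value had a median half-width of 6.69% of the level for Htr2c, 14.3% for Htr1a, 40.9% for Htr1b and 51.1% for Htr6. Of the 8 members with 1 transcript, the bounds of the highest and the lowest library lay apart for 5 (Htr1a, Htr1b, Htr2c, Htr5a and Htr7), and overlapped for Htr2a, Htr4 and Htr6. For Htr6, the upper bound of the lowest library (0.313 FPKM) was 0.626 FPKM and the lower bound of the highest (1.13 FPKM) was 0.581 FPKM, a narrow overlap.

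Htr3a and Htr1d had more than 1 transcript. The segment by which the Htr3a transcripts differ and the start regions of the Htr1d transcripts are shown. A link between these sequences and the transcript levels was not tested. The Htr3a transcripts NM_013561 and NM_001099644 differ by 18 bases (6 codons) at the start of exon 9 of 9, at chr9:48899991-48900008 on the minus strand of GRCm38, in the part of the gene that encodes the large intracellular loop of the channel. The 18 bases are in capitals, with 15 bases of coding sequence on each side in lower case, read from GENCODE transcripts.
Htr3a with the segment: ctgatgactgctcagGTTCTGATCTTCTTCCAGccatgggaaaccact
Htr3a without the segment: ctgatgactgctcagccatgggaaaccact

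The form without the segment held 68.6 to 100% of the Htr3a level in the 8 libraries and was the main form in each. The form with the segment was given 31.4% in library 1 of mouse 2 and 31.3% in library 1 of mouse 3, at 0.464 and 0.384 FPKM, and less than 1% in the other 6 libraries. The lower bound deposited for that form in library 1 of mouse 2 was 0.0721 FPKM, and its upper bound in library 3 of mouse 2, where it was lowest, was 0.0723 FPKM.

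Htr1d had 4 transcript models, of which 3 begin at an upstream start and NM_001285484 at a downstream start, 1088 bases apart. Both promoters are given as RefSeq lists them on GRCm38.p6, from 250 bases before the start in lower case through 50 bases from the start in capitals, on the plus strand. They are at chr4:136423274-136423573 and chr4:136424362-136424661.
Htr1d upstream start: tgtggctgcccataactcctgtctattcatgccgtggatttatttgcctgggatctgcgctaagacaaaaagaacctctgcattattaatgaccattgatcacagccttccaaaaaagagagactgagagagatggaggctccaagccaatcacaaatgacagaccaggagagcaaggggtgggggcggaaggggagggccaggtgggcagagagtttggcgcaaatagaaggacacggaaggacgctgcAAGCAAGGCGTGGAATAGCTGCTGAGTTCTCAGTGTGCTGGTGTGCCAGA
Htr1d downstream start: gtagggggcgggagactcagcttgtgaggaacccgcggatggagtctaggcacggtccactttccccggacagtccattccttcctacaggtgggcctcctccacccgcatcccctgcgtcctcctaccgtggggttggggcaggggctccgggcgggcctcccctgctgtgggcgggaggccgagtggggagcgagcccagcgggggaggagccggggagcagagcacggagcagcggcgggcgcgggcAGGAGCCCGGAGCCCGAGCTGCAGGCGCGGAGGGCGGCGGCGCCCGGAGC

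The upstream window holds 7 CG dinucleotides at 52.0% GC, the median CG count of the 32851 promoters in the table. The downstream window holds 28 CG dinucleotides at 74.3% GC, more than 85.8% of these promoters. The letters TATAAA occur on neither strand of either window. The transcript from the downstream start, NM_001285484, was given over 50% of the Htr1d level in 6 of 8 libraries, at 73.7 to 100% there. In libraries 1 and 3 of mouse 2, 87.1 and 99.9% went instead to NM_001285483, from the upstream start, which was also given 26.3% in library 1 of mouse 3, and NM_001285482 was given 24.1% in library 1 of mouse 1. The summed level of Htr1d differed little between those libraries, at 1.03 and 0.958 FPKM in the libraries of mouse 2 led by NM_001285483 and 0.796 FPKM in the library of that mouse led by NM_001285484. The split between transcripts was thus less steady than the sum, and the deposited bounds of the highest and lowest library lay apart for both NM_001285484 and NM_001285483.

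**Figure D4:**
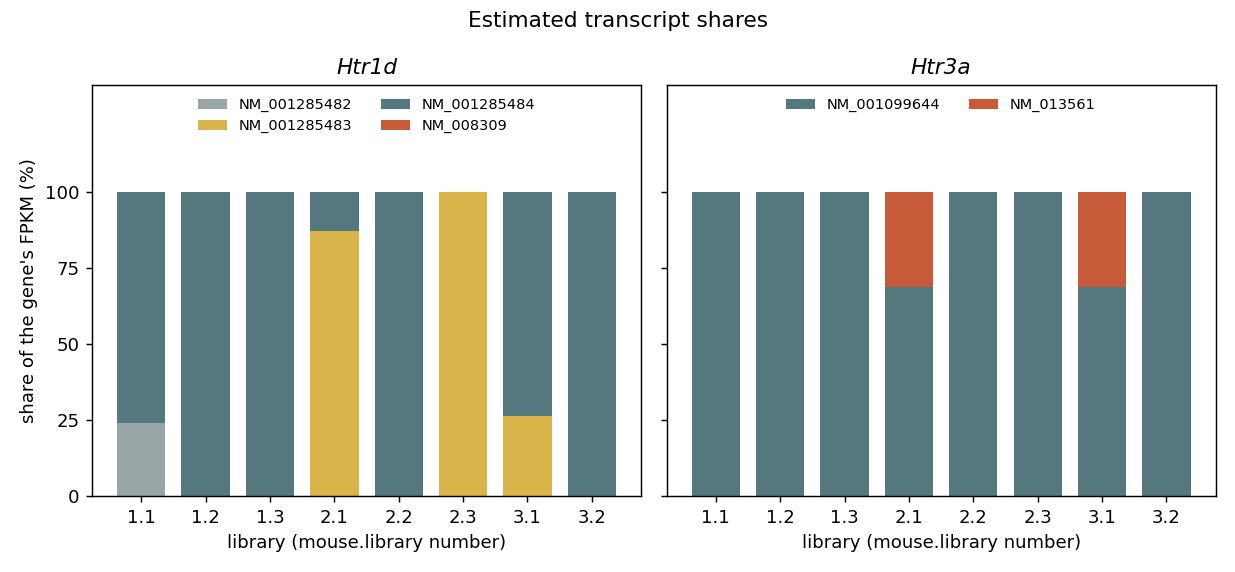
Share of the Htr1d level (left) and of the Htr3a level (right), in percent, given to each transcript in each of the 8 libraries. The main Htr1d transcript changes in libraries 1 and 3 of mouse 2, and the longer Htr3a form appears at 31.4 and 31.3% in library 1 of mouse 2 and of mouse 3.

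With a single condition, the comparison between samples that the design allows is between individual mice. None of the 7 members that averaged 1 FPKM or more (Htr2c, Htr2a, Htr7, Htr1a, Htr5a, Htr1b and Htr3a) differed between the mice by limma's F-test across all genes, whereas 25.5% of the 13001 genes tested were called (3310 genes). At an unadjusted p under 0.05 the limma fit gave 1 member, Htr1a, whose adjusted p was 0.101. The adjusted p was 0.123 for Htr2c, 0.165 for Htr5a and 0.522 to 0.994 for the other 4. In a fit on the 16392 genes averaging 0.1 FPKM or more, all 10 members were tested and 0 were called, against 18% of all genes.

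When mouse 3 was set against the mean of mice 1 and 2, a contrast chosen with the separation of mouse 3 known, Htr1a was the only member called. It was lower in mouse 3 by a log2(FPKM + 1) difference of −0.24 ± 0.078 (SE, limma adjusted p = 0.0418), and in 2 of 2 libraries of that mouse. In that contrast 37.9% of all genes were called, 20.4% higher and 17.5% lower. This call of Htr1a was lost in 7 of 8 fits that left out a library (adjusted p 0.0528 to 0.184, against 0.0444 without library 1 of mouse 2), while the difference stayed between −0.27 and −0.21. Without library 1 of mouse 3, the difference was −0.40 for Htr5a and −0.26 for Htr2c. That fit holds mouse 3 by a single library, in which Htr5a was at its lowest, and assumes that it varies like the libraries of mice 1 and 2. With all 8 libraries, the difference was −0.21 ± 0.074 for Htr2c (adjusted p = 0.0528) and −0.25 ± 0.096 for Htr5a (adjusted p = 0.0670). Neither passed. Both libraries of mouse 3 lay below all 6 others for 3 of the 7 members, Htr1a, Htr2c and Htr5a, as they did for 21.7% of all genes, while 0 of the 7 lay above all 6 others, as 26.5% of all genes did. Htr2a (−0.13 ± 0.10), Htr3a (−0.16 ± 0.16) and Htr7 (−0.0048 ± 0.12) differed by less than 2 SE, and Htr1b was the only member with a positive estimate (0.27 ± 0.22), which was −0.10 after the length trend described below was removed and −0.081 without library 1 of mouse 3. The median over the 7 members was −0.16, beside 0.02 over all genes.

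Several measures moved with mouse 3. Mbp, given above, was higher, as was the sum of 2 astrocyte markers (194 to 209 FPKM in mice 1 and 2, 289 and 296 FPKM in mouse 3). The sum of 2 cerebellar markers was higher too (102 to 128 FPKM, and 138 and 224 FPKM). Of these, Gabra6 in library 1 of mouse 3 (31.8 FPKM) lay within its range in mice 1 and 2 (30.0 to 33.9 FPKM). The neuronal marker Rbfox3 was lower, at 71.3 to 79.1 FPKM in mice 1 and 2 and 57.1 and 49.9 FPKM in mouse 3, while Snap25 overlapped, at 1009 to 1119 FPKM and 915 and 1084 FPKM. Across genes, the rank correlation of transcript length with the deviation of a library from the mean was 0.183 to 0.503 in mice 1 and 2 and −0.365 and −0.576 in mouse 3, a description across genes that are not independent replicates. With FPKM as deposited, the 3 longest models among the 7 tested members, those of Htr5a, Htr2c and Htr1a, had the lowest estimates, and Htr1b, with the shortest, the highest. Htr4, under 1 FPKM and with a model of 4657 bases, longer than that of Htr1a, had an estimate of −0.0019 in the fit with the lower minimum. Once the trend with length was removed, the Htr1a difference was −0.13 (adjusted p = 0.209, the highest over all alternatives, which began at 0.00380), and no member was called. After scaling all libraries to the same total, which moved the median of all genes to −0.23, Htr2c, Htr1a, Htr5a and Htr2a were called in the F-test against 43.3% of all genes, and the split of all genes in the contrast became 1081 higher and 5740 lower, from 2650 and 2271. Relative to that median, their differences were −0.26, −0.23, −0.23 and −0.14. Fewer cells that carry a receptor and less of its RNA per cell cannot be told apart in bulk samples, and the part of cell composition and of length in the Htr1a difference was not tested.

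**Figure D5:**
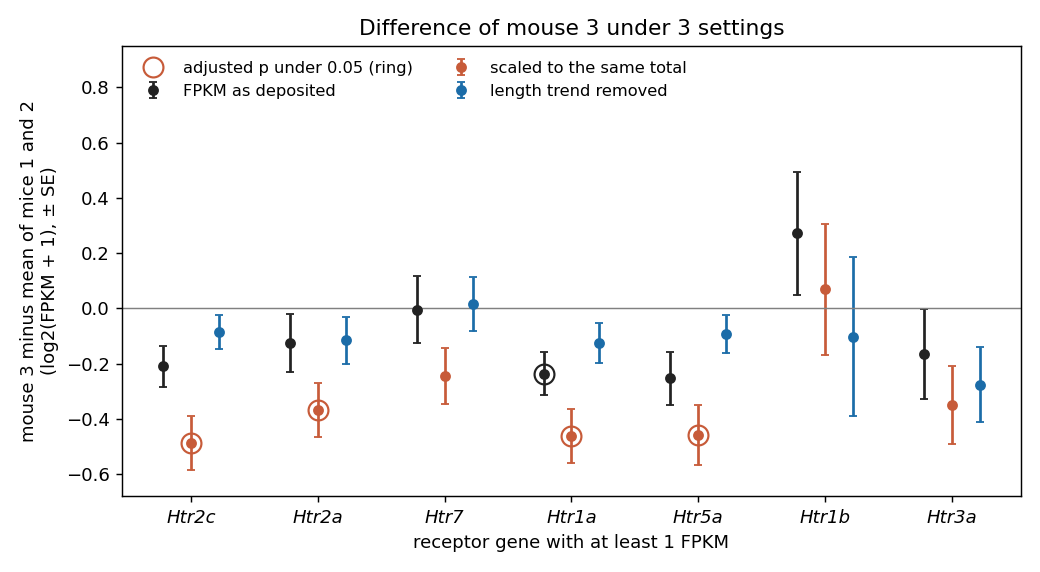
Difference of mouse 3 from the mean of mice 1 and 2 for the 7 receptor genes with at least 1 FPKM (log2(FPKM + 1), ± SE from limma), with FPKM as deposited, after scaling each library to the same total and with the length trend removed; a ring in any colour marks an adjusted p under 0.05. Htr1a is ringed for FPKM as deposited, 4 genes are ringed after scaling, and 0 once the length trend is removed.

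The other genes of serotonin signalling were read from a list of 17 genes for the remaining receptors, synthesis, storage, uptake, breakdown, receptor partners and RNA editing. Of these, 10 had at least 1 FPKM and 3 were called between the mice, beside the 25.5% of all genes, and all 3 were higher in mouse 3. Tph2, the rate-limiting enzyme of serotonin synthesis in neurons, was at 0.878 to 1.46 FPKM in mice 1 and 2 and 2.00 and 4.43 FPKM in mouse 3. Its difference in the contrast of mouse 3 was 0.88 ± 0.21 (SE), and its adjusted p in limma's F-test was 0.0358. That difference was 0.46 without library 2 of mouse 3, where the F-test did not call it, and 1.31 without library 1. S100a10, which encodes the p11 protein that binds the Htr1b receptor, was at 26.9 to 34.6 FPKM and at 48.02 and 69.0 FPKM. Its difference was 0.92 ± 0.14 in that contrast (F-test adjusted p = 0.0102). With the length trend removed, its difference was 0.25 and the F-test did not call it (adjusted p = 0.125). Without library 2 of mouse 3 the difference was 0.66, and S100a10 was not called by the F-test. Maob, a mitochondrial enzyme that breaks down monoamines, was at 10.2 to 11.5 FPKM and at 14.1 and 14.4 FPKM. Its difference was 0.34 ± 0.069 in that contrast (F-test adjusted p = 0.0223). After scaling to the same total the difference was 0.06, and the call was lost (F-test adjusted p = 0.573).

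In the contrast of mouse 3, 5 of the 10 were called, 4 higher and 1 lower, beside the 37.9% of all genes. To the 3 above it added Maoa, the other monoamine oxidase, which was higher by 0.30 (adjusted p = 0.0259), and Adar, an RNA-editing deaminase, which was lower by a difference of −0.55 (adjusted p = 0.0226). The difference of Maoa was 0.024 after scaling to the same total (adjusted p = 0.870), and that of Adar was −0.27 and not called without library 2 of mouse 3 (adjusted p = 0.236). Without library 2 of mouse 3, limma's F-test called 0 of the 10, and 126 of all genes (0.969%). It called 1 with any 1 library of mouse 1 left out, beside 12.6 to 14.1% of all genes. Without library 1 of mouse 2 it called 5, beside 29.7% of all genes. The summed level of 3 markers of serotonergic neurons was 1.33 to 1.92 FPKM in mice 1 and 2 and 2.76 and 5.85 FPKM in mouse 3. Most of this sum was Tph2, given above, so it is not a separate result. Slc6a4 was also higher, at 0.186 to 0.561 FPKM in mice 1 and 2 and 0.589 and 1.205 FPKM in mouse 3. Fev in mouse 3 (0.169 and 0.2202 FPKM) lay within its range in mice 1 and 2 (0 to 0.2701 FPKM). Htr1a, the autoreceptor of these neurons, was lowest in mouse 3. The part of serotonergic neurons in these levels was not tested.

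The pattern of Htr2c over the 8 libraries was most like those of Rnf152 (Pearson's r 0.988), Osbpl3 (0.985) and Fam76b (0.981), among 13000 other genes with at least 1 FPKM, of which 551 had an r over 0.9. For Htr1a, the member called in the contrast of mouse 3, they were Pcdha4 (0.990), Magi3 (0.952) and Smad7 (0.950), with 82 genes over 0.9. These correlations describe 8 libraries of 3 mice that share a mouse, a depth and a length trend, and for both members the libraries of mouse 3 were the lowest.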

How the data were processed

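Whole brains of 3 mice were profiled by bulk RNA-seq in 8 libraries (Kapa mRNA HyperPrep). The submitters' processing notes name TopHat, Cufflinks and mm10, without versions; the strand setting and read length were not given in the sources used here. The authors deposited FPKM with confidence bounds for 34535 RefSeq transcripts in each library, and the coverage of each transcript, a signal of read depth per base not scaled to library size, with transcript lengths. Bases read are coverage times length. Read numbers are unknown, so no counting interval was computed. The status was FAIL for 8 values, 0 of them of receptor genes.

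FPKM was summed per gene. Genes averaging 1 FPKM or more were tested on log2(FPKM + 1) with limma 3.58.1 (R 4.3.3; moderated F-test and contrasts, Benjamini-Hochberg adjustment, threshold 0.05), which was tested on simulated data. Fold changes on this scale understate those of low genes. File starts were read as counting from 0. Exons came from GENCODE M21, and promoters from RefSeq (GRCm38.p6), which held 8 of the 10 genes. The text names the 10 genes, the called genes of the serotonin list, marker lists by their sum (for oligodendrocytes Mbp alone, since the sum of that list is not reported here), and the 3 genes most correlated with Htr2c and with each called member. Snord16a, from the 3 genes most correlated with Htr1b, is named as well. The members and lists were chosen with earlier results of these data known. Alternatives changed the pseudocount, minimum, scaling, length trend, summing, library means and libraries included.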

Additional observations from a re-analysis of the deposited data

Results flagged for a closer look

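Htr5a in library 2 of mouse 3 stood apart from the other 7 libraries. It was at 1.89 FPKM, and the nearest library, the other of mouse 3, was at 2.55 FPKM. The gap was 0.582 of the range over all libraries, above Dixon's 95% limit for this number of samples. The deposited bounds of this value (1.57 to 2.20 FPKM) met those of the nearest library (2.18 to 2.92 FPKM). Of the 10 receptor genes, 1 stood out in this way, and chance gives about 1 in 20. The test treats the 8 libraries as samples of a single kind, which libraries of the same mouse are not.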

How the results depend on the processing

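Of 120 level values under the alternatives, 112 moved by less than the SD between mice. The other 8 were all of Htr7, whose SD of 0.0317 FPKM was the smallest of the 10 genes. Taking the highest transcript could not move the 8 genes with 1 transcript. The order of the 10 genes was the same in 10 of 12 settings, with Htr2c first in all 12. Without length normalization the Gq-coupled share was 60.1%, the Gs-coupled 12.3% and the ion channel 2.73%, since long transcripts then weigh more. The ion channel share was 4.81% with the highest transcript per gene and 5.30% with the median over libraries. With each library left out in turn, it was 4.63 to 5.65% and the Gi/o share 24.3 to 25.9%.

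The number of genes called between the mice was 1526 with a minimum and pseudocount of 0.1 (chosen after seeing the data), 5634 after scaling to the same total, and 126 to 3860 with a library left out. Receptor genes called were 4 after scaling and 0 to 1 with a library left out. Serotonin pathway genes called were 5 with the length trend removed and 0 to 6 with a library left out. The 5 pathway genes called with the length trend removed were of 10 tested, beside 2631 of all 13001 genes (20.2%) in that fit. The lowest and the highest count of pathway genes came from fits that hold mouse 3 by a single library. In the contrast of mouse 3, receptor genes called were 0 with a minimum of 0.1 FPKM (with either pseudocount), with the length trend removed and with the highest transcript. They were 2 with no filter, 4 after scaling, and 0 to 1 with a library of mouse 1 or 2 left out. Of all genes, 2448 of 19296 were called higher and 2227 lower with no filter, and 1081 of 13001 higher and 5740 lower after scaling. Without library 1 of mouse 2, the fit that called 1 receptor gene, 2805 genes were called higher and 2688 lower. The mouse 3 difference of Htr1b was −0.10 and that of Htr7 0.015 with the length trend removed, and with a library left out they were −0.081 to 0.62 and −0.062 to 0.038, and that of Htr3a −0.40 to 0.066. For the other changes the cause was not tested.

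With the library number as a replicate block, 2995 genes and 0 receptor genes were called, 0 receptor genes in the contrast of mouse 3, and Htr7 differed by 0.0049. The block rests on the number alone: deviations of libraries with the same number correlated at 0.0028 to 0.107 (7 pairs, 1 over 0.1), and those with different numbers at −0.135 to 0.0645 (14 pairs).

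Depth limited Htr6 and Htr1b most, with few bases read on short models.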

Other observations

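Several receptor values were alike in library 1 of mouse 2 and library 1 of mouse 3, a pairing that was chosen after its values were seen and that no test covers. These libraries had the highest Htr1b (2.96 and 3.39 FPKM, against 1.34 to 1.97 FPKM in the other 6) and the lowest Htr3a (1.48 and 1.23 FPKM, against 1.58 to 2.42 FPKM). They were also the only libraries with over 1% of Htr3a in the form with the 18-base segment. The small nucleolar RNA gene Snord16a was at 378 and 433 FPKM in them and listed at 0 in the other 6. It was picked from the 3 genes whose pattern was most like that of Htr1b (Pearson's r 0.925). Its match to the libraries with the highest Htr1b follows from that choice and adds no separate trait. Htr6 did not follow this pairing, at 0.313 FPKM in library 1 of mouse 2 and 1.06 FPKM in library 1 of mouse 3.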
